A study of Mus musculus with 8 samples.

Results

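Serpina3n, complement and acute phase genes made by stromal cells were followed on 8 Illumina arrays of mouse marrow cells. Of 7 listed genes (Serpina3n, C3, C4b, Cfb, Serping1, Hp and Agt), 6 had at least 1 probe carrying their symbol in the platform annotation, of 19057 genes with a probe, and these 6 had 11 of the 45281 probes on the array. C3, the central component of complement, was not analysed here. The list was selected on earlier readings of these same arrays, namely the differences between cell states, so its values are given as a description and no test of them is made.

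The reprogrammed cells were reprogrammed adipocytes, chondrocytes and osteocytes, each with 1 array titled p1. The differentiated cells were adipocytes on an array titled d7, chondrocytes on one titled d28 and osteocytes on one titled d21. Undifferentiated mesenchymal stem cells (MSCs), stromal cells that can form fat, cartilage and bone, had 2 arrays, titled p4 and d0. All 8 samples were labelled as adult bone marrow MSCs of C57BL/6J mice or cells made from them, and the labels name no agent, factor or transgene and do not say what d and p stand for. The title of the series speaks of the reprogramming of lineage-committed cells.

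The acute phase response is the change in plasma proteins that follows injury or infection, driven mainly by interleukin-6, interleukin-1 and glucocorticoids acting on the liver, and several of its proteins are also made by fat, cartilage, bone and marrow stroma. Complement is a cascade of plasma proteases: the classical and lectin routes run through C4 and C2, the alternative route through factor B, all of them meet at C3, and inhibitors such as C1 inhibitor hold them in check. Serpina3n and C1 inhibitor belong to the serpins, protease inhibitors that trap their target enzyme, and angiotensinogen is a serpin by descent that serves as a hormone precursor.

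Values are the deposited log2 values, whose columns had been brought to nearly the same distribution: each array had 12610 probes at a log2 value of 6 or more, which is taken here as the lowest level read as signal. Differences and means are on a log2(linear value + 16) scale, which damps changes among dim probes. Where 1 side of a comparison stayed under 6 throughout, its fold is a bound, written "at least N-fold". Between 6815 and 7652 probes were at 0 on the arrays with a p title (reprogrammed cells and MSC p4). On those with a d title (differentiated cells and MSC d0) 4317 to 5204 probes were at 0. The arrays were therefore grouped by title letter, and each group is called an array set here. No label names such sets, so the grouping is inferred. State cannot be told apart from array set except through the MSC arrays. For each member the value with array set as a block is therefore given too. That block rests on MSC p4 against MSC d0, with 1 array each, which may also differ as cells. It is thus no correction for a known batch. The standard error (SE) of a difference comes from limma over all 8 arrays, with lineages standing as the replicates of a state. As these are bulk samples, fewer cells of a type and less RNA per cell cannot be told apart, and the number of arrays limits the precision.

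Serpina3n, which encodes a secreted inhibitor of chymotrypsin-like proteases and is among the acute phase genes, was at signal level on every differentiated array and on no other array. Its probe read 0.00 in reprogrammed adipocytes, 2.62 in reprogrammed chondrocytes and 2.88 in reprogrammed osteocytes. It read 10.38 in differentiated adipocytes, 10.70 in differentiated chondrocytes and 12.36 in differentiated osteocytes. It read 0.00 in MSC p4 and 0.63 in MSC d0. The lowest differentiated array thus stood far above the highest of the others, and the groups did not overlap.

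On the damped scale Serpina3n averaged 4.37 ± 0.25 in reprogrammed cells, 11.16 ± 1.06 in differentiated cells (SD, n = 3 each) and 4.11 ± 0.03 in MSCs (SD, n = 2). The difference was 7.05 (SE 0.54) for differentiated cells minus MSCs, at least 28.6-fold, and -6.79 (SE 0.48) for reprogrammed minus differentiated cells, at least 28.6-fold lower. With array set as a block these differences were 7.02 and -6.75, nearly as large. The first sets differentiated cells against MSC d0 of their own array set. No array set holds both reprogrammed and differentiated cells, so the second goes through the MSC arrays. Its reprogrammed and MSC readings were all under the signal level. Reprogrammed cells and MSCs were both under the signal level on every array, and their order is not read. Within lineages, Serpina3n was at least 16.8-fold lower in reprogrammed than in differentiated adipocytes, at least 21.05-fold lower in chondrocytes and at least 65.9-fold lower in osteocytes. Differentiated osteocytes therefore had the highest reading of the 3 lineages, each of which has 1 array and no spread of its own.

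**Figure D1:**
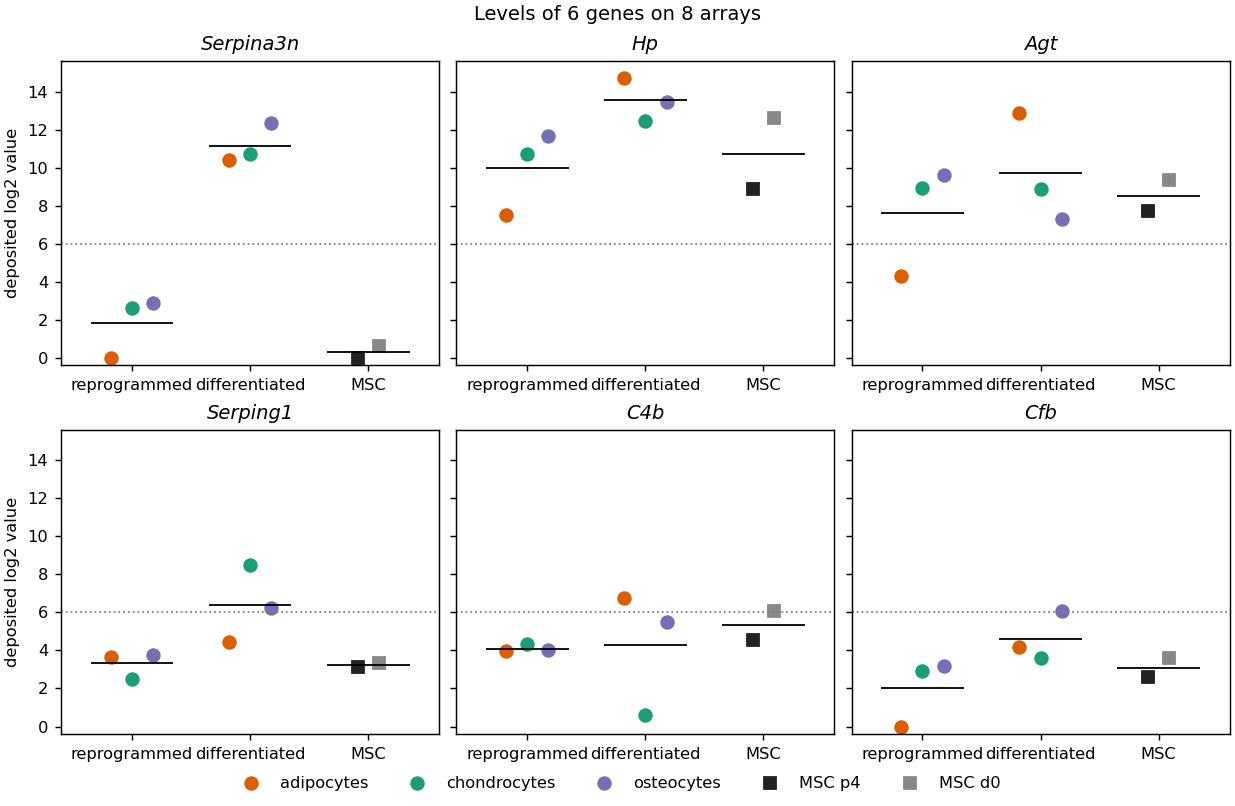
Deposited log2 values (y axis) of the 6 genes with a probe, by state (x axis), 1 point per array, with bars at the mean of each state's deposited values and a dotted line at 6. Serpina3n lies at 10.38 or above on the 3 differentiated arrays and at 2.88 or below on the other 5, while Hp and Agt are highest in differentiated adipocytes.

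Serpina3n lies on chromosome 12. Only 2 of the members measured, Serpina3n and Agt, had a promoter in the RefSeq table (assembly GRCm38.p6), and both are shown because Serpina3n was at signal level on the differentiated arrays alone, while the states overlapped for Agt. The windows run from 250 bases before to 50 bases after the annotated start, 5′ to 3′ on the strand of the gene, at chr12:104406458-104406757 (plus strand) for Serpina3n and chr8:124569657-124569956 (minus strand) for Agt. The Serpina3n gene as a whole is annotated from 104406646, inside its window, so its positions are counted from a later start than that. Capitals mark matches to a core promoter motif and to motifs of factors known to act on acute phase genes, searched on both strands.
Serpina3n: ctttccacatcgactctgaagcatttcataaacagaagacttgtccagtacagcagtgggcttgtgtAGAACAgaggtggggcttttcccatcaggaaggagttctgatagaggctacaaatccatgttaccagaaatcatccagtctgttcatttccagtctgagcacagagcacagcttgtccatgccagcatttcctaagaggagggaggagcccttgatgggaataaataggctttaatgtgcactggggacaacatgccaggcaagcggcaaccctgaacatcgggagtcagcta
Agt: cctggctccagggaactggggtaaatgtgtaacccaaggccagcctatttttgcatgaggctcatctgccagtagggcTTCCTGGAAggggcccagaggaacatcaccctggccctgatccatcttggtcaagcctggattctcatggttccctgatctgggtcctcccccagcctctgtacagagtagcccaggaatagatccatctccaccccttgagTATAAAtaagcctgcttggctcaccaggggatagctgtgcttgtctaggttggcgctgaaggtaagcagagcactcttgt

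In the Serpina3n window, TGTTCT (the core of the glucocorticoid receptor motif) matched on the opposite strand, as AGAACA, with its first base at -183 from the start. In the Agt window, TATAAA, a core promoter motif, began at -30 and TTCNNNGAA, a palindrome bound by STAT factors, at -172. No match overlapped another. Such matches are common: of 32851 RefSeq promoters of this length, 18.97% held TGTTCT, 13.62% TATAAA and 8.3% TTCNNNGAA on either strand. TTGCNNAA, a motif of C/EBP factors held by 10.8% of promoters, was in neither window. A match is a string of letters and does not show that a factor binds.

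Hp encodes haptoglobin, the plasma protein that binds free haemoglobin, made mainly by liver and also by fat. It was at signal level on all 8 arrays. The brightest of its 3 probes read 7.49 in reprogrammed adipocytes, 10.72 in reprogrammed chondrocytes and 11.68 in reprogrammed osteocytes. It read 14.70 in differentiated adipocytes, 12.47 in differentiated chondrocytes and 13.45 in differentiated osteocytes. It read 8.86 in MSC p4 and 12.63 in MSC d0. Every differentiated array thus lay above every reprogrammed array, but MSC d0 lay above differentiated chondrocytes, and the 2 MSC arrays were far apart.

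Hp averaged 10.01 ± 2.13 in reprogrammed cells, 13.54 ± 1.12 in differentiated cells (SD, n = 3 each) and 10.77 ± 2.63 in MSCs (SD, n = 2) on the damped scale. Reprogrammed minus differentiated cells differed by -3.53 (SE 1.27), 11.6-fold, without overlap. Differentiated cells minus MSCs differed by 2.78 (SE 1.41) and reprogrammed cells minus MSCs by -0.75 (SE 1.41), both with overlapping arrays, so MSCs were not separated from either state. The order of the state means was differentiated, MSC, reprogrammed.

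The Hp differences rested on which MSC array was used. MSC p4 minus MSC d0 was -3.73, or 13.2-fold lower in p4, about as large as the difference between reprogrammed and differentiated cells. With array set as a block, the difference was 0.91 for differentiated cells minus MSCs, 1.11 for reprogrammed cells minus MSCs and 0.19 for reprogrammed minus differentiated cells, so that both comparisons of reprogrammed cells turned their direction. Against the MSC array of the same set, Hp in differentiated cells minus MSC d0 was 2.07 in adipocytes, -0.16 in chondrocytes and 0.83 in osteocytes. Hp in reprogrammed cells minus MSC p4 was -1.29 in adipocytes, 1.83 in chondrocytes and 2.79 in osteocytes. Differentiated adipocytes were thus the array farthest above MSC d0, and reprogrammed adipocytes the only reprogrammed array below MSC p4.

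Within lineages, Hp in reprogrammed minus differentiated cells was -7.09 in adipocytes, a 136-fold lower level. It was -1.74 in chondrocytes and -1.77 in osteocytes, 3.34-fold and 3.40-fold lower. The gap was therefore much larger in the adipocyte lineage than in either skeletal lineage, with 1 array on each side. All 3 Hp probes followed one pattern over the arrays, with Pearson correlations of 0.989 to 0.998 between probes, as the plot of every probe shows.

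**Figure D2:**
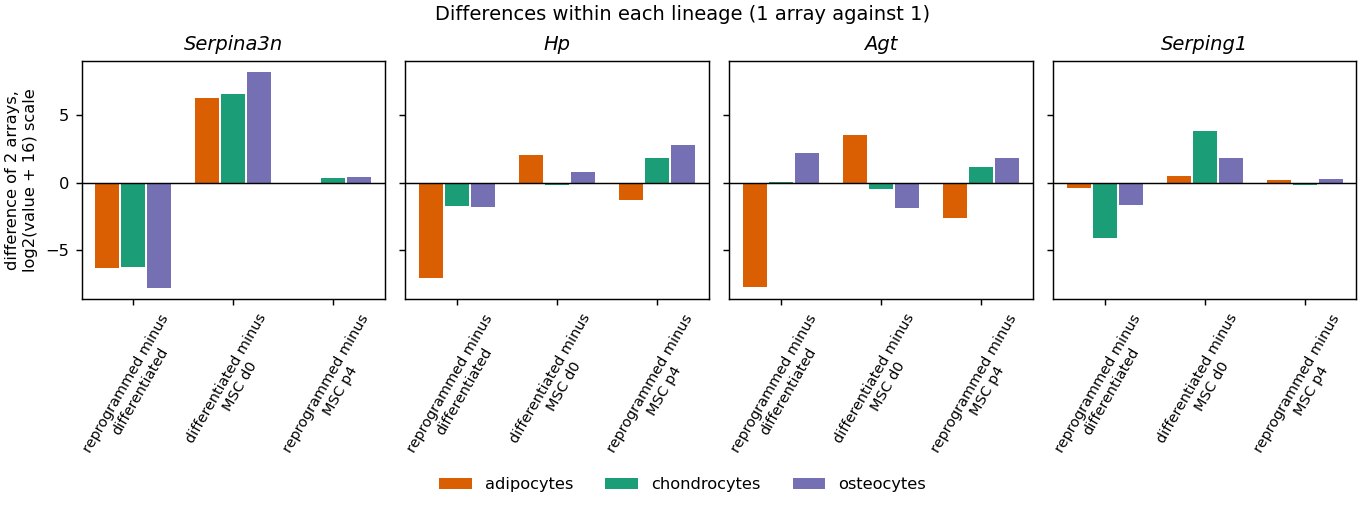
Differences between single arrays (y axis, log2(linear value + 16) scale) for 4 genes in each lineage, with 1 bar per lineage and no error bars because each bar is 1 array against 1. Every Serpina3n bar with a differentiated array has a dim side under the signal level, so its length is no measured fold and the lineages are not compared by it (bounds of at least 16.8-fold, 21.05-fold and 65.9-fold lower for reprogrammed than for differentiated cells), whereas Agt bars change sign between lineages (-7.72, 0.04 and 2.20). The Agt bars with reprogrammed adipocytes and all Serping1 bars have a dim side too, so the Agt bar of -7.72 stands for at least 95.1-fold lower. The reprogrammed minus MSC p4 bars of Serpina3n and Serping1 compare arrays that are both under the signal level, as do the other Serping1 bars of the adipocyte lineage.

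Agt encodes angiotensinogen, the precursor from which renin releases angiotensin, made by liver and by fat. Its probe read 4.33 in reprogrammed adipocytes, 8.93 in reprogrammed chondrocytes and 9.63 in reprogrammed osteocytes. It read 12.89 in differentiated adipocytes, 8.89 in differentiated chondrocytes and 7.32 in differentiated osteocytes. It read 7.70 in MSC p4 and 9.33 in MSC d0. The highest and the lowest of all 8 readings were both in the adipocyte lineage, differentiated and reprogrammed, and the states overlapped.

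Agt averaged 7.93 ± 2.42 in reprogrammed cells, 9.76 ± 2.81 in differentiated cells (SD, n = 3 each) and 8.59 ± 1.10 in MSCs (SD, n = 2). The differences between states were 1.18 (SE 1.75) for differentiated cells minus MSCs, -1.83 (SE 1.57) for reprogrammed minus differentiated cells and -0.65 (SE 1.75) for reprogrammed cells minus MSCs, none of them far outside its error. Without differentiated adipocytes the first of these was -0.39, the opposite direction, so the state difference rested on that array. With array set as a block the differences were 0.40, -0.27 and 0.13, the last on the other side of 0.

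Within lineages Agt went in opposite directions. Reprogrammed minus differentiated cells was -7.72 in adipocytes (at least 95.1-fold lower), 0.04 in chondrocytes and 2.20 in osteocytes (4.58-fold higher). Differentiated cells minus MSC d0 was 3.53 in adipocytes, -0.43 in chondrocytes and -1.91 in osteocytes. Reprogrammed cells minus MSC p4 was -2.63 in adipocytes (at least 2.80-fold lower), 1.17 in chondrocytes and 1.85 in osteocytes. Adipocytes and osteocytes thus moved apart in each of these 3 comparisons, a difference between lineages that was not tested because each side has 1 array.

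By count at signal level and by summed level, adipocyte markers were highest in differentiated adipocytes, as Hp and Agt were. Of 9 adipocyte markers with a probe, 7 were at signal level there, against 2 to 4 on the other arrays, and the log2 of their summed level was 16.28 there, against 12.84 to 14.34 elsewhere. The adiponectin gene Adipoq read 14.56 and the lipid droplet gene Cidec 13.89 in differentiated adipocytes, where no marker of the list was at 0, whereas the resistin gene Retn was at 0 in all 3 reprogrammed arrays and in differentiated chondrocytes, and the perilipin gene Plin1 in reprogrammed chondrocytes and MSC p4. Outside differentiated adipocytes most of each sum came from 1 gene, Lpl, which was at signal level on all 8 arrays. Lpl read 12.30 in reprogrammed adipocytes, 12.15 in differentiated chondrocytes and 14.23 in MSC d0. The lowest summed level was that of reprogrammed adipocytes (12.84), which also had the lowest Hp and Agt readings. Differentiated chondrocytes had nearly the same summed level (12.85), but read 12.47 for Hp and 8.89 for Agt. They also read 10.55 for Adipoq and 7.72 for Cidec, so marker level and the Hp and Agt readings did not go together on every array. The part of adipocyte content in the Hp and Agt results was not tested. Hepatocyte markers, in contrast, were nearly absent: none of 8 reached the signal level on 7 arrays, and only Apoa1, the main protein of high density lipoprotein, did so in differentiated adipocytes (7.05), while albumin (Alb) read at most 3.79 on any array.

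Serping1 encodes C1 inhibitor, which blocks the first proteases of the classical and lectin routes. Its brighter probe read 3.66 in reprogrammed adipocytes, 2.52 in reprogrammed chondrocytes and 3.78 in reprogrammed osteocytes. It read 4.47 in differentiated adipocytes, 8.51 in differentiated chondrocytes and 6.24 in differentiated osteocytes. It read 3.12 in MSC p4 and 3.35 in MSC d0. Signal was therefore read on 2 arrays only, both of differentiated skeletal lineages.

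Serping1 averaged 4.73 ± 0.25 in reprogrammed cells, 6.78 ± 1.67 in differentiated cells (SD, n = 3 each) and 4.67 ± 0.06 in MSCs (SD, n = 2). Differentiated cells minus MSCs differed by 2.11 (SE 0.81), and reprogrammed minus differentiated cells by -2.05 (SE 0.72), at least 1.37-fold in each case and without overlap. Blocked by array set they were 2.07 and -1.97. Set against the same lineage, Serping1 was at least 4.75-fold lower in reprogrammed than in differentiated chondrocytes and at least 1.15-fold lower in reprogrammed than in differentiated osteocytes. Being bounds, these folds do not rank the lineages. Without differentiated chondrocytes, the brightest array, the differences were 1.22 for differentiated cells minus MSCs and -1.16 for reprogrammed minus differentiated cells. The dimmer probe reached the signal level in differentiated chondrocytes alone, at 7.65, and read 4.49 in differentiated osteocytes. The correlation between both probes over the 8 arrays was 0.95, and a gap opened in differentiated adipocytes, where the dimmer one was at 0.00.

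By count at signal level and by summed level, macrophage markers were also highest on the differentiated chondrocyte array. Of 15 with a probe, 5 were at signal level in differentiated chondrocytes, against 1 to 3 on the other arrays, and the log2 of their summed level was 10.46 there, against 8.46 to 9.61 elsewhere. Most of that sum came from the lysozyme genes Lyz1 (9.19) and Lyz2, and Cd14 (7.59), Fcer1g (6.45) and C1qc (6.09) were at signal level too, the last 2 on that array alone. The macrophage receptor gene Csf1r (5.86), Adgre1 (4.86) and the leukocyte gene Ptprc (3.39) stayed under the signal level, and none of the list was at 0 there. Not every marker was highest on that array. Cd14 was higher in differentiated osteocytes (7.93) and MSC d0 (7.76), and Mrc1 had its lowest reading in differentiated chondrocytes (1.17). Macrophages can also make C1 inhibitor, and their part in the Serping1 result was not tested.

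C4b and Cfb encode complement component C4 and factor B, and both were close to the lower limit of reading. The brightest C4b probe read 3.95 in reprogrammed adipocytes, 4.33 in reprogrammed chondrocytes and 4.01 in reprogrammed osteocytes. It read 6.73 in differentiated adipocytes, 0.60 in differentiated chondrocytes and 5.50 in differentiated osteocytes. It read 4.55 in MSC p4 and 6.09 in MSC d0. Signal was read on 2 arrays, differentiated adipocytes and MSC d0, and differentiated cells held both the highest and the lowest reading.

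C4b averaged 5.05 ± 0.11 in reprogrammed cells, 5.67 ± 1.42 in differentiated cells (SD, n = 3 each) and 5.85 ± 0.77 in MSCs (SD, n = 2). Its state differences were -0.18 (SE 0.73) for differentiated cells minus MSCs, -0.62 (SE 0.65) for reprogrammed minus differentiated cells and -0.80 (SE 0.73) for reprogrammed cells minus MSCs, each near or within its error. Blocked by array set they were -0.72, 0.47 and -0.25, so that the second was on the other side of 0. The other C4b probes never reached 6, and correlations among the 3 probes were 0.16, -0.51 and -0.63, so the probes did not share one pattern. C4a, a near-identical copy on the same chromosome 17 annotated as a transcribed pseudogene, may share signal with the C4b probes. It read 3.76, 5.10 and 5.50 in reprogrammed adipocytes, chondrocytes and osteocytes, 8.40, 4.73 and 7.27 in the differentiated cells of those lineages, 5.16 in MSC p4 and 7.58 in MSC d0. The same 2 arrays as for C4b, and differentiated osteocytes with them, were at signal level for C4a.

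Cfb reached the signal level on 1 array, differentiated osteocytes, at 6.06, and so did not pass the filter of 2 arrays used for the fit across all genes. It read 0.00, 2.91 and 3.16 in reprogrammed adipocytes, chondrocytes and osteocytes, 4.19 and 3.60 in differentiated adipocytes and chondrocytes, and less than 3.60 on both MSC arrays. Each differentiated array lay above each reprogrammed one, by values that are mostly under the signal level, and the difference of reprogrammed minus differentiated cells was -0.65 with array set as a block. C2, which encodes the classical pathway counterpart of factor B and lies next to Cfb on chromosome 17, also had its highest reading in differentiated osteocytes. C2 read 3.95, 6.94 and 6.85 in reprogrammed adipocytes, chondrocytes and osteocytes, 6.35, 9.72 and 11.60 in the differentiated cells of those lineages, 4.95 in MSC p4 and 9.78 in MSC d0. Its difference of reprogrammed minus differentiated cells was -2.94 (SE 1.46, limma adjusted p = 0.278), which did not pass the test.

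**Figure D3:**
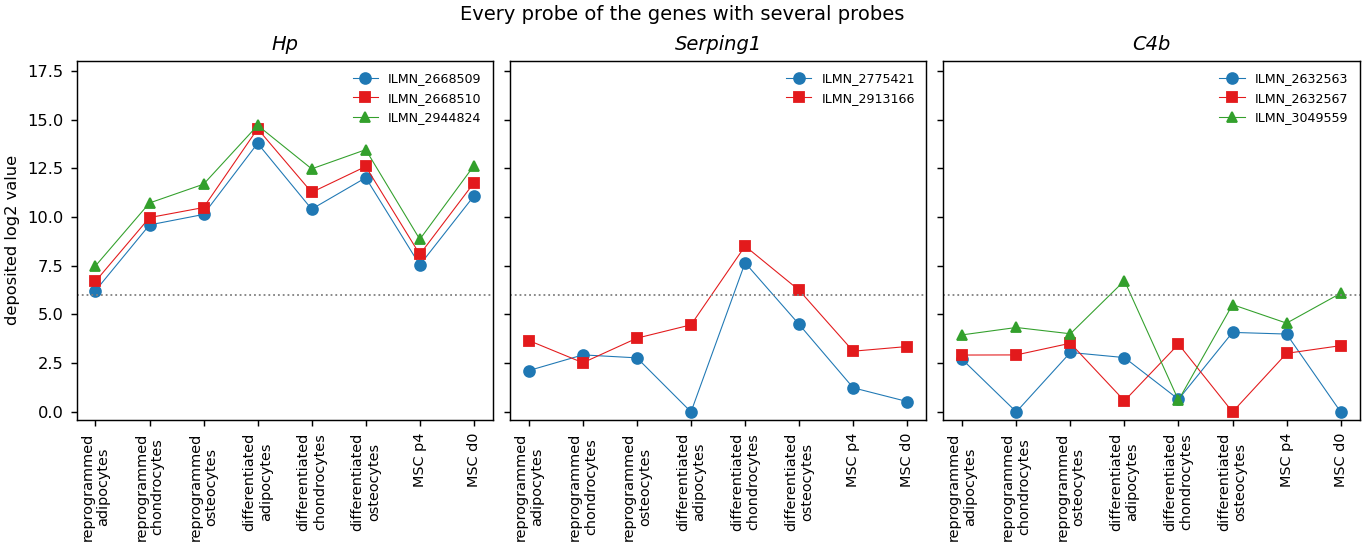
Deposited log2 values (y axis) of every probe of Hp, Serping1 and C4b on each of the 8 arrays (x axis), with a dotted line at 6 and thin lines that join the values of 1 probe. The 3 Hp probes run in parallel (correlations of 0.989 to 0.998), the Serping1 probes are both highest in differentiated chondrocytes (8.51 and 7.65), and the C4b probes cross.

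Counted over the members, 4 of the 6 measured (Serpina3n, Hp, Agt and Serping1) had a state mean higher by 1 or more on the damped log2 scale in differentiated cells than in MSCs, where 5.49% of the 8317 genes tested were that much higher. The same 4 were lower by 1 or more in reprogrammed than in differentiated cells, where 8.07% of genes were that much lower. As a measured fold or bound, 3 of them (Serpina3n, Hp and Agt) reached 2-fold in each comparison, and Serping1, with its bound of 1.37-fold, did not. None differed by 1 or more between reprogrammed cells and MSCs, as 0.854% of genes did. These comparisons share arrays, and the members were listed with them in view, so nothing is read from these counts. Of the members measured, 5 passed the filter for the fit, Serpina3n and Serping1 of them only through differentiated arrays.

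By overlap of arrays, 3 members (Serpina3n, Serping1 and Cfb) had every differentiated array above both MSC arrays (Cfb by 3.60 against 3.59), which held for 11.8% of genes, and 4 (these and Hp) had every reprogrammed array below every differentiated one, which held for 16.2%. One member, C4b, had every reprogrammed array below both MSC arrays, which held for 8.72% of genes, and its reprogrammed arrays were all under the signal level. The median difference of the 6 members was 1.64 for differentiated cells minus MSCs (-0.0033 over all genes tested), -1.94 for reprogrammed minus differentiated cells (-0.0365) and -0.43 for reprogrammed cells minus MSCs (-0.0374). With dim sides at their bound, and 0 where no fold could be given, the members' medians were 0.82, -1.14 and 0.0. With array set as a block, 2 members (Serpina3n and Serping1) still differed by 1 or more on the damped scale in the first and second of these comparisons.

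The members did not share one profile. Over the 8 arrays, which also share state, lineage and array set, Serpina3n correlated at 0.79 with Cfb, 0.76 with Serping1, 0.71 with Hp and 0.30 with Agt. Hp correlated at 0.77 with Agt, and Serping1 at 0.01 with Agt and 0.38 with Hp. C4b correlated at 0.53 with Hp and at -0.42 with Serping1. The closest pairs were thus Serpina3n with Cfb and Hp with Agt, and these correlations are descriptions over arrays that are not independent.

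Among the other genes tested, those with the pattern most like that of Serpina3n over the 8 arrays were Tsc22d3, Dmxl1 and Fkbp5 (Pearson correlations of 0.99 each), and the most opposite was Rps3a1 (-0.97). Tsc22d3, which encodes a leucine zipper protein, read 9.59 to 10.09 in reprogrammed cells, 12.30 to 13.72 in differentiated cells and 9.49 and 9.67 in MSCs. Fkbp5, a co-chaperone of steroid receptors, read 6.88 to 7.49 in reprogrammed cells, 11.38 to 11.77 in differentiated cells and 7.31 and 6.76 in MSCs. For Hp the most alike were Arhgap24, Trp53inp1 and Zscan26 (0.98 each), and the most opposite was Prim2 (-0.99), the primase subunit gene. For Agt they were Ccng2, Rnf144a and Mettl27 (0.96 to 0.98), and Nhlrc2 (-0.97). For Serping1 they were the water channel gene Aqp5, Mbnl1 and Fam180a (0.98 to 0.99), and Zfp445 (-0.98). For C4b they were Kif3a, Trim23 and Man1a (0.96 to 0.97), and Pdgfc (-0.98). With 8 arrays such values are easily reached, and 99 genes had a correlation of at least 0.9 with Serpina3n, 157 with Hp, 78 with Serping1, 40 with C4b and 21 with Agt.

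**Figure D4:**
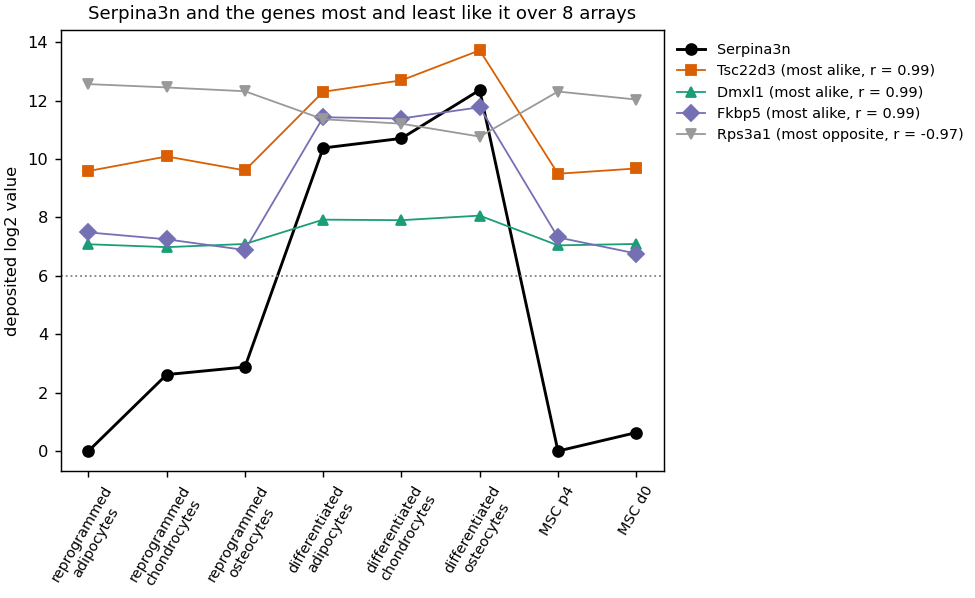
Deposited log2 values (y axis) of Serpina3n, of the 3 genes most like it and of the most opposite gene on each of the 8 arrays (x axis). Tsc22d3 and Fkbp5 are highest on the same 3 differentiated arrays as Serpina3n but stay at signal level on the others too, and Rps3a1 lies between 10.77 and 11.36 on those 3 arrays and between 12.03 and 12.56 on the other 5.

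Other complement genes were mostly not read or did not pass the test. Of 46 with a probe besides the members, 15 reached the signal level on any array and 14 were tested, and limma called 0 in any of the 3 comparisons at an adjusted p under 0.05. At an unadjusted p under 0.05 there were 5 for reprogrammed minus differentiated cells, where 22.6% of all genes tested were, and 2 for differentiated cells minus MSCs, where 10.4% were. The genes of the membrane inhibitor CD59 came closest: Cd59a fell short with a difference of -1.21 (SE 0.25, adjusted p = 0.0759) and Cd59b with -1.17 (SE 0.29, adjusted p = 0.09) for reprogrammed minus differentiated cells. Cd59a read 9.05, 9.24 and 8.71 in reprogrammed adipocytes, chondrocytes and osteocytes, 10.30, 10.47 and 9.94 in the differentiated cells, 9.27 in MSC p4 and 9.66 in MSC d0. Masp1, a protease of the lectin route, was bright on all arrays (9.58 to 13.52) with its lowest reading in differentiated adipocytes. Of the late components, C8g, which encodes the gamma chain of C8, read 5.84, 6.15 and 5.98 in reprogrammed adipocytes, chondrocytes and osteocytes, 8.73, 6.91 and 7.31 in the differentiated cells, 5.78 in MSC p4 and 7.39 in MSC d0, and C8b, the gene of the beta chain, 5.44 to 5.84 in reprogrammed cells, 6.28 to 7.30 in differentiated cells, 6.03 in MSC p4 and 5.92 in MSC d0. For both, every reprogrammed array lay below every differentiated one, by -1.46 (SE 0.50, adjusted p = 0.147) and -0.83 (SE 0.28, adjusted p = 0.145), which did not pass the limma test. Hc, C6, C7, C8a and C9 and the regulator genes Cfi, C4bp and Vtn reached 6 on no array.

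Of 33 other acute phase genes with a probe, 16 reached the signal level on any array, and 8 of these had their highest reading in differentiated adipocytes, 2 in differentiated chondrocytes, 4 in differentiated osteocytes, 2 in MSC d0 and 0 on a reprogrammed array or MSC p4. Every highest reading thus lay on an array with a d title, the array set with fewer probes at 0. The share of all genes that were highest on each array was not worked out. These counts are therefore not read as a result about acute phase genes. Of the 9 tested, 1 was called: Mt2, a metallothionein gene, fell in reprogrammed cells relative to differentiated cells (-2.58, SE 0.38, adjusted p = 0.0366, at least 2.84-fold). Mt2 read 4.74, 4.74 and 3.84 in reprogrammed adipocytes, chondrocytes and osteocytes, 6.78, 8.27 and 8.08 in the differentiated cells, 5.14 in MSC p4 and 4.92 in MSC d0. It thus passed the filter through the 3 differentiated arrays alone, where it is high, so the test is not independent of the filter. That call was lost under 11 of 17 alternative settings, and over all 17 the adjusted p ran between 0.0038 and 1.0. The related gene Mt1 had a difference of -1.80 (SE 0.30, adjusted p = 0.0518).

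Genes of larger difference but larger spread did not pass. Lcn2, which encodes the siderophore-binding protein lipocalin 2, read 3.76, 0.00 and 3.48 in reprogrammed adipocytes, chondrocytes and osteocytes, 14.87, 5.90 and 8.78 in the differentiated cells, 2.80 in MSC p4 and 3.42 in MSC d0 (reprogrammed minus differentiated -5.40, SE 1.84, adjusted p = 0.145). Like Agt and Hp, it was brightest in differentiated adipocytes. Lbp, which encodes the lipopolysaccharide-binding protein, read 5.42, 8.35 and 9.30 in differentiated adipocytes, chondrocytes and osteocytes and at most 4.65 on any other array (-3.10, SE 0.81, adjusted p = 0.0963). Its order of lineages was that of Serpina3n. Itih2, which encodes a heavy chain of the inter-alpha-trypsin inhibitor, ran the other way (2.28, SE 0.88, adjusted p = 0.181). The median difference of the 9 genes was -1.80 for reprogrammed minus differentiated cells, or -0.90 with dim genes at their bound, beside -0.0365 over all genes tested. Of these 9 genes, Mt2, Lcn2, Lbp and the orosomucoid gene Orm1 passed the filter only through differentiated arrays, where they are high. The median and the adjusted p of Lcn2 and Lbp are therefore not independent of the filter.

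**Figure D5:**
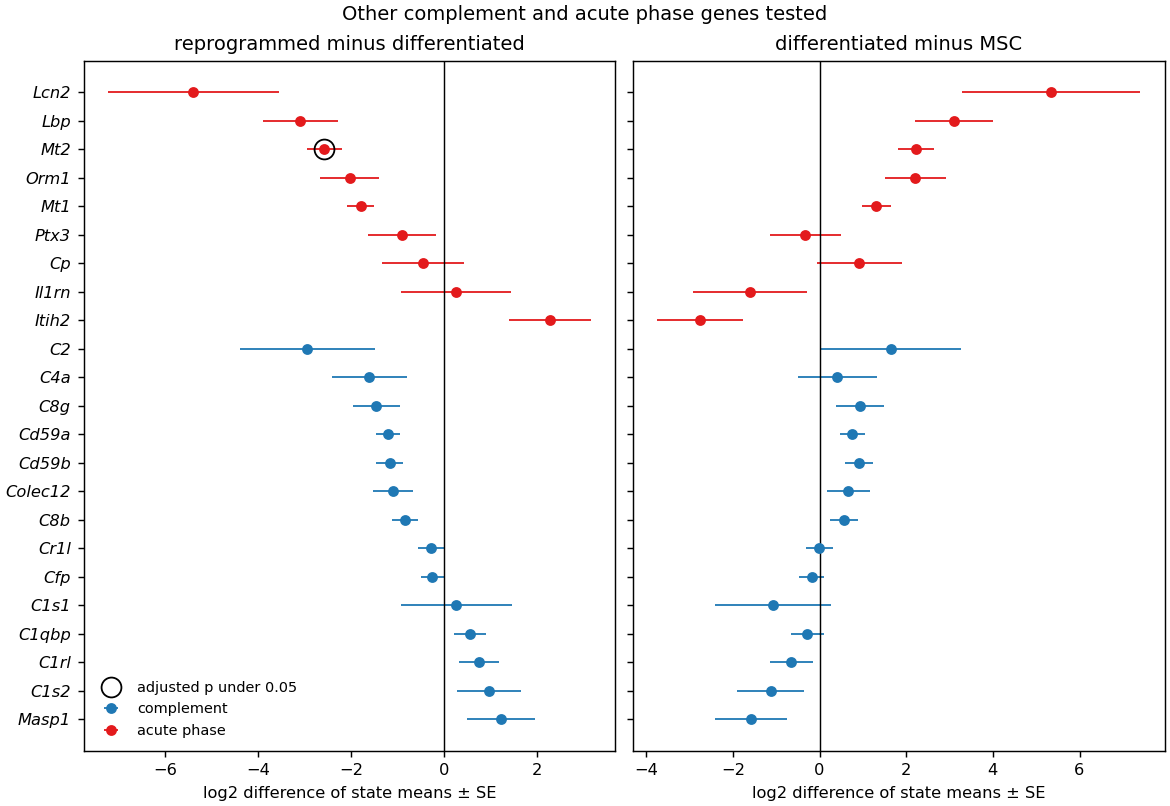
Log2 differences of state means with their SE (x axis) for the tested complement and acute phase genes other than the members (y axis), for reprogrammed minus differentiated cells (left) and differentiated cells minus MSCs (right). The circled point is Mt2 (-2.58), the single gene called, while Lcn2 has a larger difference (-5.40) with a wider error.

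The lists of genes that act around the members showed few changes. Among the other serpins listed, 24 had a probe and 2 were tested, Serpinf1 and the collagen serpin Serpinh1, with 0 called. The Serpina3 relatives with a probe, Serpina3a, Serpina3b, Serpina3f, Serpina3i and Serpina3j, reached 6 on no array, although related sequences can share signal with the Serpina3n probe. Of the renin-angiotensin partners of Agt, 12 had a probe and 3 were tested with 0 called, and the angiotensin receptor genes Agtr1a, Agtr1b and Agtr2 reached 6 on no array. Ace, the gene of the converting enzyme, read 8.53 in differentiated osteocytes and at most 4.02 elsewhere, and the aminopeptidase gene Anpep 7.14 in differentiated chondrocytes and at most 4.81 elsewhere, so neither was tested. Of the partners of haptoglobin and heme handling, 5 had a probe and 2 were tested (Hmox1 and Lrp1) with 0 called. None of the genes tested on these 3 lists reached an unadjusted p under 0.05 in any comparison.

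Regulators of acute phase genes were read for the same comparisons. In the list of interleukin-6 family and STAT3 signalling, 13 genes were tested by limma with 0 called (3 at an unadjusted p under 0.05 for reprogrammed minus differentiated cells, beside the 22.6% of all genes), and Il6ra, the interleukin-6 receptor gene, had a difference of -1.23 (SE 0.31, adjusted p = 0.0924) for reprogrammed minus differentiated cells. Lists of interleukin-1, TNF and NF-kB signalling (9 tested), C/EBP factors (5 tested) and interferon signalling (13 tested) had 0 called by limma and 1, 1 and 0 genes at an unadjusted p under 0.05 in that comparison, with Nfkbia, the NF-kB inhibitor gene, at -1.22 (SE 0.34, adjusted p = 0.105). Of 13 glucocorticoid receptor targets tested, 6 fell in reprogrammed relative to differentiated cells (Hsd11b1, Fkbp5, Tsc22d3, Per1, Zbtb16 and Klf9) and 0 rose, beside 0.397% of all genes called lower and 0.252% called higher, and 1 (Fkbp5) was higher in differentiated cells than in MSCs, beside 0.0601% of all genes. Zbtb16 passed the filter through the 3 differentiated arrays alone. Reprogrammed cells minus MSCs had 0 genes called by limma over all genes, with 27 at an unadjusted p under 0.05. Over 17 alternative settings the fall of Klf9 was lost in 10 and that of Fkbp5 in 1. These targets were already known to differ on these arrays when the list was used. With array set as a block, 0 genes of 8317 were called for reprogrammed minus differentiated cells, with 170 at an unadjusted p under 0.05.

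The labelled cell types were read against their markers. MSC p4 had 6 and MSC d0 had 5 of 9 stromal markers at signal level, with Thy1 and Lepr under it on all 8 arrays. Differentiated chondrocytes had 7, each reprogrammed array had 6, and differentiated adipocytes and osteocytes had 5 each. The count of stromal markers thus did not set the MSC arrays apart. Differentiated chondrocytes had 3 of 7 chondrocyte markers at signal level (Col2a1 9.15, Sox9 10.73 and Col10a1 7.51), against 1 or 2 on the other arrays, but Acan, Matn3, Comp and Cnmd were under it. Col2a1 was higher in reprogrammed adipocytes, chondrocytes and osteocytes (10.41, 10.05 and 9.74), so it went against the label. Sox9 was nearly as high in MSC d0 (10.57) and in differentiated osteocytes (10.18). Differentiated osteocytes had 4 of 9 bone markers at signal level, against 6 in differentiated chondrocytes, 4 in reprogrammed chondrocytes and in MSC p4 and 1 or 2 on the other arrays. The log2 of the summed bone marker level was 10.24 in differentiated osteocytes, against 14.53 in differentiated chondrocytes, 10.92 to 11.89 in reprogrammed cells and 10.46 and 11.04 in MSCs, so it went against the label. Dmp1 and Sost, genes of mature osteocytes, reached 6 on no array. Neutrophil markers were under the signal level on 7 arrays, and S100a8 (7.84) and Mpo (7.21) reached it in differentiated adipocytes, while S100a9 (3.38) did not.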

How the data were processed

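RNA was extracted with a Qiagen kit and labelled with biotin as cRNA through an Ambion kit, per the labels' protocols. The authors' deposited log2 values of 45281 probes on 8 arrays were analysed. How the authors corrected and normalized them is not given in the sources used here. Once sorted, the columns lay within 0.0175 of each other at log2 values over 2, and the lowest value was 0. Another table, with 16 value columns that could not be matched to samples, was not used.

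Symbols came from the platform annotation (34885 probes with 1 symbol, 18 with several, 10378 with none), and 34807 Entrez identifiers were matched to the RefSeq table of GRCm38.p6. Deposited values were made linear, 16 was added and log2 was taken. Genes with a probe at a deposited log2 value of 6 or more on at least 2 of 8 arrays were fitted, 8317 in all, each by its probe of highest mean, by lmFit and eBayes of limma 3.58.1 under R 4.3.3, two-sided, Benjamini-Hochberg adjusted over all genes at 0.05. For a bound, the dim side was set to 6.32 (the level of 6 after the offset) or to its own mean where that was higher. The fit was tested on simulated data. The labels name no separate cultures or animals, and each differentiated or reprogrammed cell type has 1 array. A p-value therefore sets a difference against the spread between the lineages of a state and between the 2 MSC arrays. That spread holds differences between lineages, from which technical spread cannot be told apart. It is not a spread between replicates of 1 cell type. Alternatives changed the offset, the filter, the probe rule, the arrays in the fit, array set and lineage as blocks, and left out each array in turn.

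The members and the gene lists were chosen with earlier results of these data known. Named genes were the members, the genes of each list that were called or had the 3 largest differences, the 3 most alike and the most opposite gene per member, and the cell type markers. Genes named because they reached the signal level on no array or on 1 array, and the remaining genes named from lists, were chosen after their values were seen.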

Additional observations from a re-analysis of the deposited data

Results flagged for a closer look

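Lineages moved in opposite directions under the same comparison for Hp and Agt. For each, 1 array was set against 1, so the differences between lineages were not tested. Hp in reprogrammed cells minus MSC p4 was 1.83 in the chondrocyte lineage and 2.79 in the osteocyte lineage, but -1.29 in the adipocyte lineage (log2 differences). Agt in reprogrammed cells minus MSC p4 showed the same split, with 1.17 in chondrocytes, 1.85 in osteocytes and -2.63 in adipocytes (at least 2.80-fold lower). Agt in differentiated cells minus MSC d0 was 3.53 in adipocytes and -1.91 in osteocytes. Agt in reprogrammed minus differentiated cells was -7.72 in adipocytes (at least 95.1-fold lower) and 2.20 in osteocytes. The comparisons share arrays: a high reading of Agt in differentiated adipocytes enters both of the last.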

How the results depend on the processing

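Counts of genes called moved with the setting, and the cause was not tested. For differentiated cells minus MSCs, with 5 genes called in the values reported, 2 were called with no offset, 10 with an offset of 64, 3 with the level needed on 1 array, 3 with no filter, 9 with a level of 7, 2 with the mean of a gene's probes, 1 with array set as a block and 0 with the arrays of the 2 states only (510 genes at an unadjusted p under 0.05). Leaving out 1 array gave 1 to 57, with 57 without differentiated adipocytes, 1 without MSC p4 and 2 without MSC d0 or any 1 reprogrammed array. For reprogrammed minus differentiated cells, with 54 called, array set as a block gave 0, and leaving out 1 array gave 2 to 216, with 216 without differentiated adipocytes and 2 without any 1 reprogrammed array. Lineage as a replicate block, which pairs reprogrammed and differentiated arrays of 1 lineage, gave 7 calls, 6 of them among the 54, and left 4 members differing by 1 or more; Mt2 then had an adjusted p of 0.0907. For reprogrammed cells minus MSCs no setting gave a call. Members differing by 1 or more on the damped log2 scale numbered 2 with array set as a block, for differentiated cells minus MSCs and for reprogrammed minus differentiated cells (4 each as reported), and leaving out 1 array gave 2 to 5 and 3 to 6. For reprogrammed cells minus MSCs (0 as reported) there were 3 with no offset, 1 with array set as a block and 0 to 3 when 1 array was left out, with 3 without MSC p4. Member differences on the other side of 0 were, with array set as a block, Hp in reprogrammed minus differentiated cells (0.19) and in reprogrammed cells minus MSCs (1.11), C4b in reprogrammed minus differentiated cells (0.47) and Agt in reprogrammed cells minus MSCs (0.13). Without 1 array they were Agt (-0.39, in a range of -0.39 to 2.33) in differentiated cells minus MSCs and C4b (0.02) in reprogrammed minus differentiated cells without differentiated adipocytes, C4b in differentiated cells minus MSCs without MSC d0 (0.37) or differentiated chondrocytes (0.59), Hp (1.11) and Agt (0.13) in reprogrammed cells minus MSCs without MSC d0, or without reprogrammed adipocytes (Agt 0.73, Hp also above 0), and Serping1 in reprogrammed cells minus MSCs, under the signal level on both sides, without reprogrammed osteocytes (-0.03). Serpina3n kept its directions in both comparisons with differentiated cells under every setting tried, at 5.16 to 10.83 and -9.31 to -5.09.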

Other observations

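Acute phase genes read on a single array were mostly read in differentiated adipocytes. Of the 7 such genes, 6 were at signal level there and 1 in differentiated chondrocytes, and all were named after their values were seen. In differentiated adipocytes the serum amyloid gene Saa3 read 10.26, the fibrinogen chain gene Fga 10.27, Itih4 8.48, the calcium-binding protein gene S100a8 7.84, the orosomucoid gene Orm2 7.55 and the hemopexin gene Hpx 6.72. Lrg1 read 7.36 in differentiated chondrocytes. On the reprogrammed arrays these 7 genes read at most 4.77, and on MSC arrays at most 5.07. Other genes of the same families stayed under the signal level in differentiated adipocytes: Saa1 (2.99), Saa2 (3.11), Saa4 (4.49), Fgb (3.48), Fgg (3.75), Itih1 (0.00), Itih3 (4.35), Orm3 (3.37) and S100a9 (3.38). Orm1 (7.87) and Itih2 (8.05) were at signal level there and also on other arrays. The share of all genes read on 1 array alone was not worked out, so nothing about acute phase genes is read from the count. No test applies to 1 array.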
